A study of Caenorhabditis elegans with 2 samples.

Results

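Small nucleolar RNA (snoRNA) genes lay close to the summits of 256 of the 71547 ranked regions recovered with the tagged NF-Y subunit NFYA-2, and 16 of these 256 regions were in the series' conservative peak list. The 256 were chosen by position: the summit lay within 300 bp of the annotated start of a snoRNA gene (Ensembl, WBcel235) and not within 300 bp of a tRNA gene start. The tRNA condition removed 0 regions. No signal entered the choice, so the signals below describe regions picked without them.

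SnoRNAs are short nucleolar RNAs that guide chemical modification of ribosomal RNA. Those of the C/D class, bound by fibrillarin, direct 2′-O-methylation, and those of the H/ACA class, bound by the dyskerin homologue DKC-1, direct pseudouridylation. Many sit in introns and are released from the host transcript, but in C. elegans some, including some inside introns, are known to have promoters of their own, and part of these are read by RNA polymerase III. RNA polymerase III reads tRNA genes from 2 short internal elements, the A box and the B box. NF-Y is a trimeric factor that binds CCAAT, and nfya-2 encodes an A subunit.

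The study sequenced chromatin precipitated with an antibody to GFP from whole young adult worms, 64 h after release from starvation-synchronised L1, of strain RW12238, which carries st12238[nfya-2::TY1::EGFP::3xFLAG] I, a CRISPR insertion. There was 1 group of 2 biological replicates, a control is named without a description, and no list from an untagged strain was analysed here. Whole animals were used, so the tissue in which a region was bound is unknown. Each ranked region carries a merged signal in the peak caller's own units and a first and a second replicate signal, and read depth is unknown. Regions of 1 pair of libraries are not replicates of each other, so shares, medians and 95% Wilson intervals are given as descriptions, and the intervals cover counting error only.

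Just before the annotated start of the snoRNA, 10 of the 16 conservative regions had a pair of words that resemble the A and B boxes of a tRNA gene. Of these, 4 had a strict form and the others a looser form given below. In the strict form the first word was TGGNNNANNGG, and the second, GTTCNANNC, followed 15 to 60 bases after it. Both forms were written after the sequences of the conservative regions had been seen, so their share among the 16 describes those regions and is no independent result. The strict pair stood before 4 of the 16 snoRNA genes, which are shown here from 75 bases before the start to 15 bases into the gene, with the pair in capitals (WBcel235, gene strand). The windows were T03F7.8 at chrV:11314183-11314272 on the plus strand, Y75B12B.12 at chrV:15191079-15191168 on the minus strand, Y43F8C.22 at chrV:19643173-19643262 on the minus strand and T10B9.11 at chrII:9774820-9774909 on the minus strand.
T03F7.8: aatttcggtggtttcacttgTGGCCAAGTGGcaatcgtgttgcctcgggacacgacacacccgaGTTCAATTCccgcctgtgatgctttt
Y75B12B.12: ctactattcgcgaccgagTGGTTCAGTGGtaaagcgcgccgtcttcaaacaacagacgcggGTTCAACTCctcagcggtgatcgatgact
Y43F8C.22: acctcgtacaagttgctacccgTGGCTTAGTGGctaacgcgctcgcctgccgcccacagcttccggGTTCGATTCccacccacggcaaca
T10B9.11: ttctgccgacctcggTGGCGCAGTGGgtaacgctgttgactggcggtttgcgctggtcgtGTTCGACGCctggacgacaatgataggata

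A further 6 of the 16 had a looser pair, namely TGG, 3 bases, A or T, 2 or 3 bases and GG, then 15 to 60 bases, then GTT, C or T, and A or G. These 6 were W03C9.9, C10C6.8, T06C12.16, W08G11.6, W01C9.6 and C53B7.8. Of them 4 are printed, with the looser words in capitals, to show how they depart from the strict pair: W03C9.9 at chrII:11960823-11960912 on the plus strand, T06C12.16 at chrV:15873912-15874001 on the minus strand, W01C9.6 at chrII:8547134-8547223 on the plus strand and C53B7.8 at chrX:6867863-6867952 on the plus strand.
W03C9.9: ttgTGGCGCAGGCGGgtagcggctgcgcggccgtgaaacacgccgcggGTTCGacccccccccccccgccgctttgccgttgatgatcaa
T06C12.16: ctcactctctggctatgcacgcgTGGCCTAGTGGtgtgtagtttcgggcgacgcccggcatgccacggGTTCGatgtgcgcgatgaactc
W01C9.6: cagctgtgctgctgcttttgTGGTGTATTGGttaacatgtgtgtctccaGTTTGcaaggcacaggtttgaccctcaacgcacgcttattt
C53B7.8: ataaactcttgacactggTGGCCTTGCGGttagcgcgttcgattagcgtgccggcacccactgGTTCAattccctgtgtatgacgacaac

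A different word, TGTCGG, stood before 3 more of the 16, of which Y37E3.20 is not printed. The other two, ZK994.7 and Y67A10A.14, are shown with C16D9.10, a region outside the conservative list that was in the other thresholded list of the series. Capitals mark TGTCGG in the windows of ZK994.7 at chrV:8500504-8500593 on the plus strand, Y67A10A.14 at chrIV:14327107-14327196 on the minus strand and C16D9.10 at chrV:8247947-8248036 on the minus strand.
ZK994.7: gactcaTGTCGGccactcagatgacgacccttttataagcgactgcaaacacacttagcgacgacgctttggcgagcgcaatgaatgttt
Y67A10A.14: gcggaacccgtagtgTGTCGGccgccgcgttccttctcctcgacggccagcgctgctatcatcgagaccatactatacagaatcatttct
C16D9.10: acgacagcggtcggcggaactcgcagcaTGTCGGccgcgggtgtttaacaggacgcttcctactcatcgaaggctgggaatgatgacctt

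The words were then counted in front of snoRNA, tRNA, snRNA, coding, miRNA and piRNA genes, on the gene strand, from 120 bases before to 20 bases after the start. Other kinds of gene were not searched. The snoRNA genes whose sequences were seen before the words were written stay in the counts. Part of the gap between snoRNA genes and other kinds is therefore built in. The strict pair was found at 16 of 346 snoRNA genes (4.62%), at 1 of 19973 coding genes and at 0 of 129 snRNA genes. It was also found at 2 of 261 miRNA genes (0.766%) and at 2 of 15363 piRNA genes. This stretch leaves out most of a tRNA gene, where the boxes are internal, so it says nothing of tRNA genes: within 100 bp of the summit the strict pair was in 115 of 419 regions at tRNA starts (27.4%), against 10 of 256 at snoRNA starts (3.91%) and 0.403% of all ranked regions. At the 16 snoRNA genes its first base lay between −68 and −50, with a median of −56.5, and its last base between −16 and 3. The looser pair was found at 51 snoRNA genes (14.7%), 79 coding genes (0.396%), 0 snRNA genes, 5 miRNA genes (1.92%) and 93 piRNA genes (0.605%). TGTCGG was found at 35 snoRNA genes (10.1%), where 21 began between −50 and −43. It was more frequent before snRNA genes, which encode the spliceosomal and related nuclear RNAs: 42 of 129 had it (32.6%), 38 of them beginning at −50 to −43. Coding genes had TGTCGG in 1.60%, tRNA genes in 2.61%, miRNA genes in 4.21% and piRNA genes in 1.36%. A match of letters does not show that the word is used as a promoter.

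**Figure D1:**
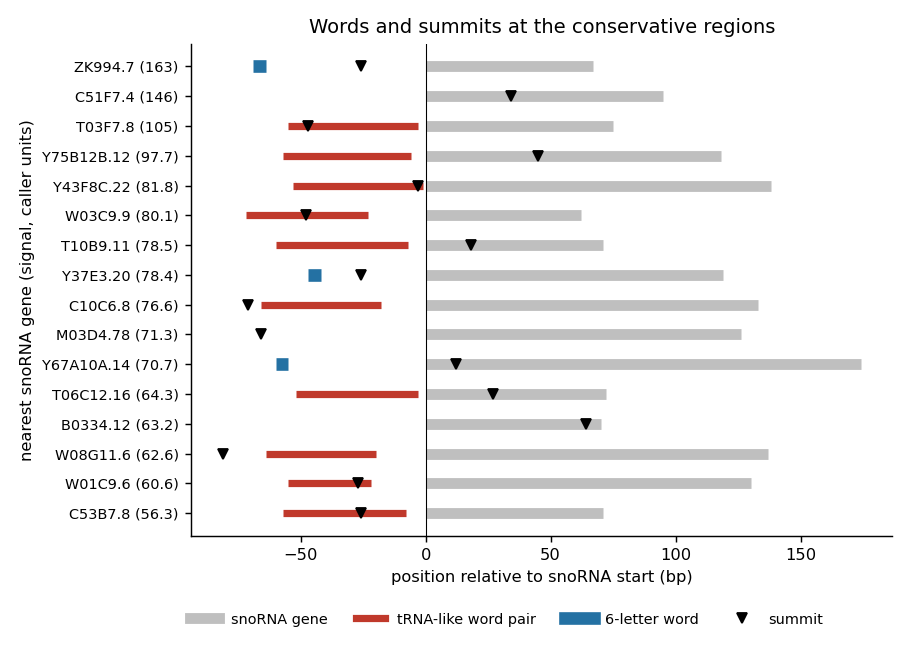
Position of the word pair, strict where present and otherwise the looser one (red), the 6-letter word TGTCGG (blue), the summit (black triangle) and the snoRNA gene (grey) at the 16 conservative regions, in bp from the snoRNA start, with the merged signal in caller units after each name. The red bars sit before the start at 10 genes, and the summits lie from −81 to 64.

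ZK994.7 had the strongest region. Its merged signal was 162.6, with 86.7 in the first and 76.7 in the second replicate, and 0.0573% of all ranked regions had a higher merged signal. The summit lay 26 bp before the snoRNA, inside an intron of pxn-1, which encodes a peroxidasin of the extracellular matrix, and 5664 bp from the start of pxn-1. The region at C51F7.4 and its neighbour C51F7.3 followed, with a merged signal of 145.5 and replicate signals of 63.01 and 85.5. This was the 1 conservative region whose nearest snoRNA, C51F7.4, overlapped an exon of a coding gene, frm-7, which encodes a FERM domain protein, while C51F7.3 lay in an intron. C51F7.4 had no pair before its start, but a looser pair lay within 100 bp of the summit.

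The 4 genes with the strict pair came with signals from 78.5 to 105.1. T03F7.8, in an intron of the cuticlin-like gene cutl-18 on the opposite strand, had 105.1 merged, 61.3 in the first and 46.7 in the second replicate. Y75B12B.12, outside coding genes, had 97.7, 54.6 and 42.7. Y43F8C.22, an H/ACA gene in an intron of Y43F8C.7, had 81.8, 38.2 and 44.8. Classes here and below follow a rule on a gene's first and last bases, and a match does not prove the class. T10B9.11, outside coding genes, had 78.5, 34.5 and 44.5. The first replicate was the higher at 2 of these 4 and the second at the other two, so the order of the replicates differed among them.

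The 6 genes with the looser pair had signals from 56.3 to 80.1, which overlap those of the strict pair. W03C9.9, with C/D boxes and outside coding genes, had 80.1 merged, with 40.5 and 36.4 in the replicates. C10C6.8, an H/ACA gene in an intron of catp-8, which encodes a cation-transporting ATPase, had 76.6, with 25.9 and 49.9. T06C12.16, outside coding genes, had 64.3, with 31.0 and 41.2. In these genes too the higher replicate varied. W08G11.6, an H/ACA gene in an intron of W08G11.3, had 62.6, with 28.7 and 36.1. W01C9.6, H/ACA and outside coding genes, had 60.6, with 33.6 and 30.7. C53B7.8, outside coding genes and the 1 conservative region on the X chromosome, had 56.3, with 31.5 and 29.1, the lowest merged signal of the 16. It met the H/ACA rule but is 71 bp long, against 130 to 138 bp at the other conservative genes that met it.

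Beside ZK994.7, TGTCGG stood before Y37E3.20 and Y67A10A.14. Y37E3.20, in an intron of pcyt-2.1, which encodes an enzyme of phosphatidylethanolamine synthesis, had 78.4 merged, 46.0 in the first and 42.7 in the second replicate. Y67A10A.14, outside coding genes, had 70.7, with 35.7 and 32.3. The remaining regions had none of these words before the start. M03D4.78, outside coding genes and 273 bp before zen-4, which encodes a kinesin of cytokinesis, had 71.3, with 23.3 and 47.8. B0334.12, in an intron of the potassium channel gene twk-5 on the opposite strand, had 63.2, with 31.0 and 30.6, and a strict pair within 100 bp of its summit on the other strand. Over the 16 regions the ratio of the second to the first replicate signal ran from 0.761 to 2.05, with the first higher at 9 and the second at 7.

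The conservative list held 16 of 256 regions at snoRNA starts, 6.25% (95% Wilson interval 3.88 to 9.91), against 0.393% of all ranked regions. It held 9 of 84 regions at snRNA starts (10.7%, 5.74 to 19.1), 12 of 419 at tRNA starts (2.86%, 1.65 to 4.94) and 76 of 8807 at coding gene starts away from these small RNA genes (0.863%, 0.690 to 1.08). The interval for snoRNA starts overlaps those for snRNA and tRNA starts. The other thresholded list held 21 members (8.20%) against 0.604% of all ranked regions, and those 21 included the 16. At the level of irreproducible discovery rate (IDR) of the conservative list, 0.01, there were again 16 members, against 0.534% of all. In the thresholded lists of single replicates there were fewer. Replicate 1's list held 5 members, at ZK994.7, C51F7.4, T03F7.8, Y75B12B.12 and Y43F8C.22, 1.95% against 0.129%. Replicate 2's list held 3, at ZK994.7, C51F7.4 and Y43F8C.22, 1.17% against 0.131%. The other 11 were in neither, so their call rests on the 2 libraries together.

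**Figure D2:**
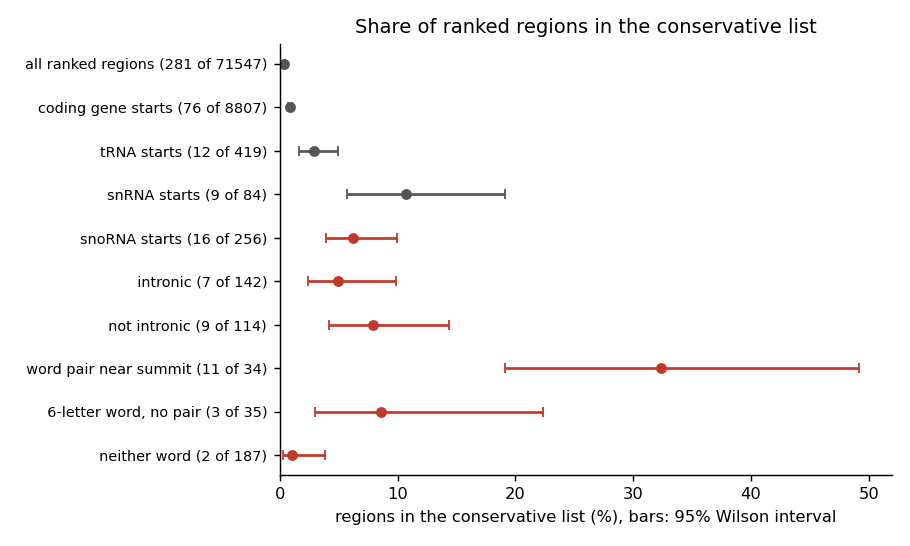
Percent of ranked regions in the conservative list, with counts beside each name and 95% Wilson intervals as bars, for all regions, 4 kinds of gene start (snoRNA in red) and subgroups of the regions at snoRNA starts. The highest share, 32.4%, is that of regions with the looser word pair within 100 bp of the summit, words chosen after the conservative sequences were seen.

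Signal was also higher below the calls. The median merged signal of the 256 regions was 29.5, with a range from 2.58 to 162.6, against 22.97 for all ranked regions, and the 240 members outside the conservative list had 28.4. Regions at tRNA starts (28.4) and snRNA starts (29.4) had similar medians. The merged signal exceeded both replicate signals at 236 of the 256. At the lowest, T13E5.1, it was 2.58 with 15.9 and 8.91 in the replicates. Some members also shared replicate signals: the regions at C16D9.11, with 47.8 and 10.9 merged, each had 30.8 and 17.6. The first replicate had a median of 15.5 against 12.3, and the second 16.5 against 11.98. Among the strongest 10% of all ranked regions were 30.9% of the members by merged signal, 30.5% by the first and 32.0% by the second replicate. Regions at tRNA starts (31.0%) and snRNA starts (33.3%) had similar shares by merged signal, while coding starts had 11.6%. The rank correlation of the 2 replicate signals was 0.448 over the members and 0.191 over all ranked regions, a description over regions that share libraries. At snRNA starts it was 0.423 and at tRNA starts 0.397, so the higher value was not particular to snoRNA genes.

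**Figure D3:**
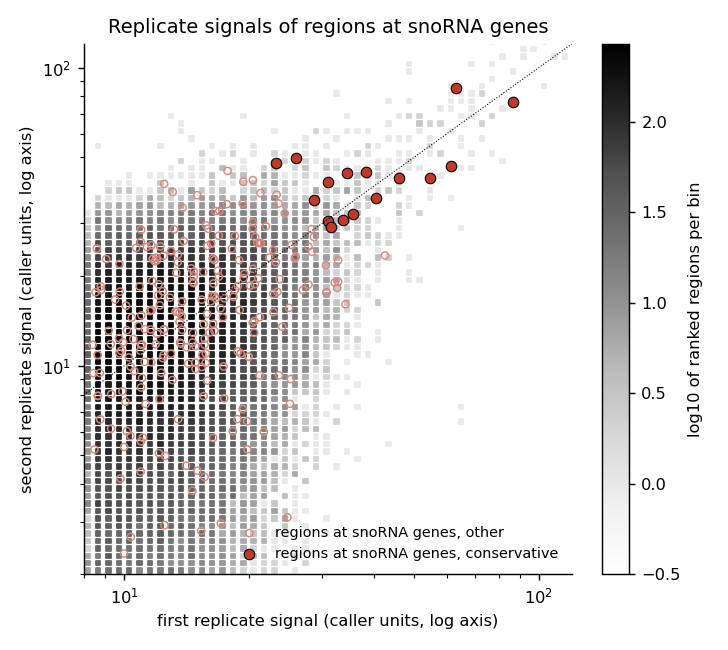
First against second replicate signal (caller units, both axes log) for all ranked regions, as grey bins shaded by the log10 number of regions, and for the 256 regions at snoRNA starts, filled where conservative. The dotted line marks equal signals, and the 16 filled points lie at 23.3 or more in the first and 29.1 or more in the second replicate.

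Of the 346 nuclear snoRNA genes, 230 had a ranked region within 300 bp, 116 had none, and 17 had a conservative one, since C51F7.3 and C51F7.4 share a region. The members had 226 distinct nearest snoRNA genes, 30 genes were nearest to more than 1 region, and 7 regions had more than 1 snoRNA start in reach. All 256 regions were 240 bp wide, and keeping only the strongest of overlapping members left 248.

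Conservative regions lay at snoRNA genes inside and outside introns. Of the 256, 112 were at a snoRNA inside a coding gene's intron on the same strand, 30 in an intron on the opposite strand, 30 over an exon and 84 outside coding genes. The conservative regions numbered 5 of 112 (4.46%; ZK994.7, Y43F8C.22, Y37E3.20, C10C6.8 and W08G11.6), 2 of 30 (6.67%; T03F7.8 and B0334.12), 1 of 30 (3.33%; C51F7.4) and 8 of 84 (9.52%). The intronic share was 7 of 142, or 4.93% (2.41 to 9.83), and the share elsewhere 9 of 114, or 7.89% (4.21 to 14.3), with overlapping intervals. Median merged signals were 28.7 and 30.1, first replicate medians 14.8 and 16.1 and second replicate medians 16.2 and 16.6. At this number of regions no difference between intronic and other snoRNA genes could be read from the shares.

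Genes for ribosomal proteins are a common home of snoRNAs. There were 17 regions at snoRNAs in introns of such genes, among them rpl-2, rpl-4, rpl-7 and rps-13, with merged signals from 13.9 to 51.1 and a median of 32.1. Of these 0 were conservative, which allows up to 17.6% and cannot be told from the 4.93% of all intronic members. Conservative peaks did occur at some of the same hosts, farther from the snoRNA. Between 301 and 600 bp from a snoRNA start there were 179 regions with a median signal of 25.3, and 5 of them (2.79%) were conservative. Their nearest coding starts were those of rpl-15, rpl-7A, rps-13, rla-1, which encodes a ribosomal stalk protein, and cdc-48.1, which encodes an AAA ATPase. The summit was 23 bp before the start of rpl-7A (merged 70.6, replicates 40.7 and 27.8) and 189 bp before that of cdc-48.1 (113.5, 51.8 and 62.0). It was 355 bp before that of rpl-15 (96.2, 47.5 and 49.4) and 982 bp after that of rps-13 (59.9, 26.0 and 35.3). At rla-1, where the summit was 26 bp after the start, the merged signal of 2.38 lay below both replicate signals, 24.0 and 49.2. None of the 5 had the strict pair, the looser pair or TGTCGG within 100 bp of the summit.

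The summits of the conservative regions clustered at the snoRNA start. All 16 lay within 100 bp of it, from −81 to 64 with a median of −26, while 125 of the 256 members (48.8%) lay that close. Of the 131 members farther away 0 were conservative, a count that allows up to 2.29%. From −100 to −1 there were 67 members, 10 conservative (14.9%), with a median merged signal of 36.3. From 0 to 100 there were 58 members, 6 conservative (10.3%), with a median of 31.3. In the outer bins the medians were 20.3 (−300 to −201, 25 members), 28.47 (−200 to −101, 45), 26.3 (101 to 200, 29) and 27.4 (201 to 300, 32). At the edge of the distance rule, W03B1.17 at 298 bp had 45.1, F21F12.3 at −298 had 43.9 and C18D1.21 at 295 had 17.9. Just outside, T06E4.20 at −301 had 17.8, F54E7.10 at −302 had 53.2 and F55H12.9 at −302 had 32.8, and none of these was conservative.

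**Figure D4:**
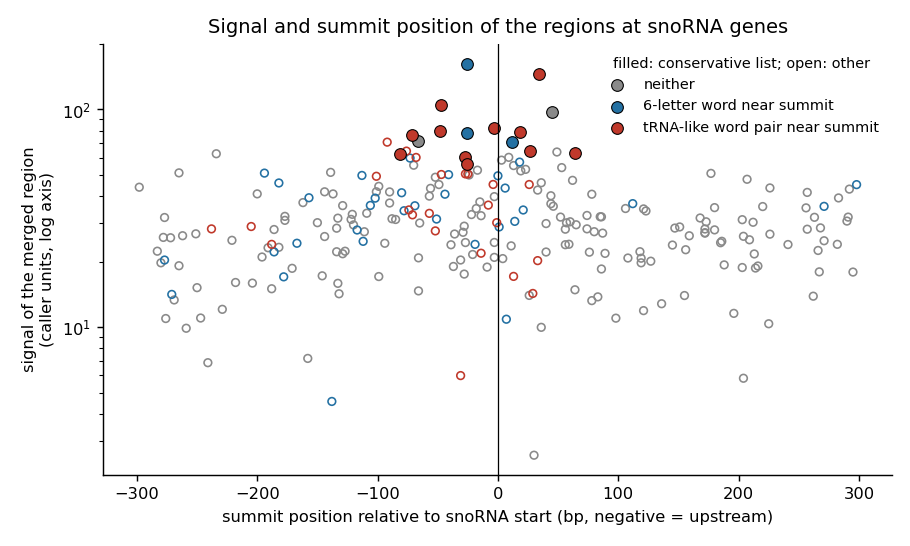
Merged signal (caller units, log axis) against summit position from the snoRNA start in bp for the 256 regions, coloured by the word within 100 bp of the summit, with conservative regions filled. The 16 filled points lie between −81 and 64 and above 56, and 11 of them have the looser pair.

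No difference in the share of conservative regions could be read between members near and away from a coding gene start. A coding start lay within 300 bp of 29 members (11.33%), with a median merged signal of 28.502, and 2 of these were conservative (6.90%, 1.91 to 22.0), Y75B12B.12 (248 bp before Y75B12B.11) and M03D4.78 (273 bp before zen-4). The other 227 members had a median of 29.5, and 14 were conservative (6.17%, 3.71 to 10.1). The median distance of the 16 from a coding start was 1185 bp, and 9 lay more than 1000 bp away. Of the 18 intronic members with a coding start within 300 bp 0 were conservative (upper limit of the Wilson interval 17.6%), and of the other 124 intronic members 7 were (5.65%), a gap that is not detectable at these numbers.

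Grouped by the words before the snoRNA start, the 13 members at a gene with the strict pair had a median merged signal of 50.5, and 4 were conservative (30.8%, 12.7 to 57.6). The 9 others reached from 13.2 to 70.8. The strongest, C05D2.15, an H/ACA gene in an intron of madf-11, had 70.8, with 42.6 and 23.4 in the replicates and an IDR of 0.0240. At the weak end T24H7.6 had 13.2 and C41C4.11 had 20.2, so the pair was also present at snoRNA genes with ordinary signals. The 40 members with TGTCGG had a median of 35.2 with 3 conservative (7.50%, 2.58 to 19.9), and the 203 with neither had 28.502 with 9 conservative (4.43%, 2.35 to 8.21). Of those 9, 6 had the looser pair. Both pairs and TGTCGG were written after the sequences of the conservative regions were seen, so the shares by word are no independent result. With the looser pair in place of the strict one, 10 of 45 members were conservative (22.2%, 12.5 to 36.3; median 40.8), and of the 171 with no looser pair and no TGTCGG 3 were (1.75%, 0.598 to 5.03; median 28.1), C51F7.4, M03D4.78 and B0334.12.

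Calls at regions with the same words were then counted elsewhere in the ranked list. The words were written after the sequences of the conservative members were seen, so a high called share among members with them was built in. Regions elsewhere had no part in that choice, so the shares below are descriptions and the gap between them is no result. With the looser pair within 100 bp of the summit on either strand, 11 of 34 members were conservative (32.4%, 19.1 to 49.2), against 3 of 135 regions at tRNA starts (2.22%) and 15 of 3022 regions away from snoRNA, tRNA and snRNA starts (0.496%). Of the remaining members, 3 of 35 with TGTCGG (8.57%) and 2 of 187 with neither (1.07%; M03D4.78 and Y75B12B.12) were conservative. The pair of Y75B12B.12 reached 2 bases beyond the window searched. Within 100 bp of the start, where all calls lay, the counts were 11 of 30, 3 of 18 and 2 of 77. Regions with TGTCGG, with or without a pair, were conservative in 3 of 39 at snoRNA starts (7.69%, 2.65 to 20.3), 2 of 19 at snRNA starts (10.5%, 2.94 to 31.4), 0 of 20 at tRNA starts and 14 of 4731 away from these genes (0.296%). Base composition moved with the calls: median GC within 100 bp of the summit was 51.5% in the 16, 43.3% in the 256, 38.3% in all ranked regions and 42.8% in all conservative regions, and its part in the result was not tested. Repeated sequence was rare: over 50% of the 31-base words at 2 or more places was found in 0 of the 16, 6 of the 256 and 4.01% of all regions.

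The core CCAAT was about as frequent in the 256 members as in the list at large. Within 100 bp of the summit on either strand it was in 98 of 256 members (38.3%), against 37.8% of all ranked regions. It was in 4 of the 16 conservative members, ZK994.7, Y43F8C.22, Y67A10A.14 and W01C9.6, against 39.5% of all conservative regions. The extended consensus, 2 purines, CCAAT, C or G, and a purine, was in 7 members (2.73%), against 2.64% of all ranked and 11.0% of all conservative regions. None of the 16 had it, a count of 0 that allows up to 18.75%. The B box word of tRNA genes, GTTCGANNC, was in 21 members (8.20%) and in 4 of the 16, C51F7.4, Y43F8C.22, W03C9.9 and T10B9.11. It was in 1.97% of all ranked regions, 6.41% of all conservative regions and 44.9% of those at tRNA starts. CGCGC was in 48 members (18.75%) and 11 of the 16, against 9.09% of all ranked and 28.47% of all conservative regions. No match says only that these letters are not in this window.

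Box sequences of the snoRNA genes themselves, read by a rule on the first and last bases, put 12 members at C/D genes, 47 at H/ACA genes and 197 at genes with neither, by the nearest gene. Most annotated genes, 273 of 346, met neither part of this strict rule, which does not show that they lack the boxes. Nor does a match prove the class: C53B7.8, counted below as H/ACA, is only 71 bp long. The median merged signals at C/D, H/ACA and other genes were 35.7, 34.5 and 28.3. The conservative regions numbered 1 (W03C9.9), 5 (Y43F8C.22, C10C6.8, W08G11.6, W01C9.6 and C53B7.8) and 10, so 8.33% (1.49 to 35.4) of regions at C/D genes, 10.6% (4.63 to 22.6) at H/ACA genes and 5.08% (2.78 to 9.09) at genes with neither, with overlapping intervals. Counted by gene, 2 C/D genes had a conservative region, since C51F7.3, which shares its region with the nearer C51F7.4, is also C/D by this rule. By chromosome, V had the highest share, with 7 of 43 members conservative (16.3%, 8.12 to 29.97). It was 4 of 51 on II (7.84%, 3.09 to 18.5) and 3 of 47 on IV (6.38%, 2.19 to 17.2). X had 1 of 19 (5.26%, 0.935 to 24.6), I had 1 of 55 (1.82%, 0.322 to 9.61) and III had 0 of 41 (0 to 8.57). The share of all ranked regions on each chromosome is not given here, so nothing about snoRNA genes is read from these differences.

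Outside the conservative list the 5 strongest members were C05D2.15, described above, F59C6.15, F17C11.24, F17C11.14 and smy-3. F59C6.15, with TGTCGG before its start, had 64.4 merged, with 23.3 and 37.5 in the replicates and an IDR of 0.0141. F17C11.24 had 63.8, with 17.8 and 45.0, the widest gap of these 5, and an IDR of 0.0799. F17C11.14, in an intron of eef-1G, which encodes translation elongation factor 1 gamma, had 62.6, with 28.7 and 27.0 and an IDR of 0.0190. Its summit was 234 bp before the snoRNA. The region at smy-3 had 60.3, with 23.6 and 35.0 and an IDR of 0.0154. The 5 members that were only in the other thresholded list were C05D2.15, F59C6.15, F55A11.10, C16D9.10 and F26D10.24, the last in an intron of hsp-1, which encodes an HSP70 chaperone.

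The genes of the snoRNP core proteins had no conservative peak from 1000 bp before to 200 bp after their starts, 0 of 8 against 0.726% of coding genes, and nothing is read from a count of 0 among so few genes. No ranked region at all lay there at fib-1 (fibrillarin), nol-56 (C/D core protein) or Y48A6B.3 (NHP2 homologue). The strongest regions at the others were 52.3 at nola-3 (NOP10 homologue), 41.9 at dkc-1 (dyskerin), 26.9 at snu-13 (the protein that binds the C/D kink-turn), 25.4 at nol-58 (C/D core protein) and 20.9 at garr-1 (GAR1 homologue). Of these, nola-3 was exceeded by 1.20% and dkc-1 by 4.62% of ranked regions.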

How the data were processed

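Anti-GFP ChIP-seq of 2 biological replicates gave lists of ranked and thresholded regions, on assembly ce11 per the text deposited with the files. Which aligner and peak caller were used is not given in the sources used here. The deposited signal is the authors' peak caller's value per region, for the merged region and for each replicate. The authors also deposited −log10 of the IDR per region, converted here to an IDR. No read counts were used, so depth and its precision are unknown. The first and second replicate signals of the ranked list equalled a signal in replicate 1's and replicate 2's own list in 100% and 99.5% of the 200 strongest regions.

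The members, lists and words were chosen with earlier results of these data known, and the paired words, their looser form and TGTCGG after the sequences of the conservative regions were seen. Summits were placed against nuclear genes of Ensembl release 115 on the plus or minus strand. Position 0 is the first base of a gene, and negative positions lie before it. A region counted as being in a list of a single replicate with an overlap of 1 bp. Host, class and words of a region are those of its nearest snoRNA gene. An intronic snoRNA lay inside an intron of a coding gene on either strand. A gene was C/D where TGATGA began in its first 20 bases and CTGA lay in the last 20, and H/ACA where ACA stood 3 bases from its end. No tests were run across regions. Wilson intervals are at 95%, and a count of 0 was read as allowing 3. Named are all conservative members, the 5 strongest others, the members of counts of 5 or fewer and the snoRNP genes, while further members named as examples were chosen after their values were seen. The word search was tested on simulated data. Python 3.11.15, numpy 2.4.6, pandas 2.3.3, scipy 1.17.1 and matplotlib 3.10.9 were used. Alternatives changed the distance, the overlap rule, the peak list, the replicate, the intron rule and the word window.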

Additional observations from a re-analysis of the deposited data

How the results depend on the processing

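With summits within 150 bp there were 165 members, with a median signal of 32.5 (intronic 32.1, others 32.7) and a median distance of 57 bp. Within 500 bp the median was 28.3, 28.4 outside introns, the distance 186 bp, and 4 conservative regions lay near a coding start, as 4 also did with a promoter window. Keeping the strongest of overlapping regions gave an intronic median of 29.8. The stronger conservative peaks left 10 members at 11 snoRNA genes. In place of the conservative list, the thresholded list of replicate 2 or replicate 1 alone held 3 to 5 members (1.17% to 1.95%) at 4 to 6 genes. Of these, 0 to 1 lay near a coding start. Those are separate lists, with 0.131% and 0.129% of all ranked regions against 0.393%, not the conservative list remade without a replicate. Median signals in single replicates were 15.5 to 16.5, intronic 14.8 to 16.2 and others 16.1 to 16.6. Single-replicate signals are on a lower scale than merged ones.

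Chosen after seeing the data, counts by word in the single-replicate lists were 1 to 3 with the strict pair, 1 to 1 with TGTCGG and 1 to 1 with neither. The other thresholded list gave 5 with TGTCGG, and the looser words gave 10 with a pair. Over all alternatives 57 values stayed within their limits and 34 moved. No paired analysis was possible because there was 1 group and no result came from a test. The unknown depth limits comparison between the replicates.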
